A study of Papio anubis with 2 samples.

Results

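The dense groups described here are runs of 10 or more H3K4me3 peaks in which no peak lies more than 10 kb from the next. They were taken from chromosomes 1 to 15, 17 and 18 of a peak list of 9910 intervals, of which 8689 lay on those 17 chromosomes. Linking at 10 kb gave 3994 groups, isolated peaks included, and 119 of them held 10 or more peaks. These 119 dense groups held 3339 peaks, which is 38.4% of the peaks on the 17 chromosomes (95% exact interval 37.4% to 39.5%) and 33.7% of the whole list. The members were chosen by the listed positions themselves, that is, by the distance to the next peak and the number of peaks linked, so these values describe the choice and no test was made on them.

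The list came from chromatin immunoprecipitation and sequencing of brain cells taken from the subventricular zone in adult baboon (Papio anubis). The labels call the cells neural progenitors, and their protocols describe capture on beads with antibodies to glial and progenitor proteins (Nestin, Vimentin, GFAP) or to proteins of young neurons (Doublecortin, PSA-NCAM), without saying which marker was used for this chromatin. H3K4me3 was profiled in 1 library and total histone H3 in another, and the total H3 library was not analysed here. The labels give no genotype, treatment, age beyond adult, or number of animals. With 1 library there is no replicate, so every spread below is a spread over groups, gaps or peaks of this library. Intervals cover counting error only, and they are too narrow because neighbouring peaks and groups are not independent. Read depth is unknown.

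H3K4me3 is histone H3 with a trimethyl group on lysine 4, placed by methyltransferase complexes of the COMPASS family. It sits on the nucleosomes that flank transcription starts of genes that are active or poised, usually as a short region around each start, and some genes carry it over a longer stretch. The subventricular zone lies along the lateral ventricles and, in adult mammals, holds astrocyte-like stem cells and the dividing progenitors and neuroblasts that descend from them. The peaks could not be tied to genes, since the gene table used here describes the baboon assembly Panubis1.0 whereas the peaks are placed on the macaque assembly rheMac2. For the same reason the labelled cell type could not be checked against marker genes, and what the annotation holds at each position is not given. The list gives a sequence, a start and an end for each peak and no height, so every value below is a position, a distance or a count.

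Most dense groups were modest in size and a few were very large. A group held 10 to 145 peaks, with a median of 18 (quartiles 13 and 39), over a span of 3.91 to 163 kb, where the median span was 20.5 kb and the quartiles were 12.5 and 37.3 kb. The smallest size class, 10 to 19 peaks, had 67 groups with 27.6% of the member peaks. The 35 groups of 20 to 49 peaks held 35.5%, the 15 groups of 50 to 99 peaks held 28.8%, and the 2 groups above 99 peaks held 8.12%. The median span was 14.4 kb in the first of these size classes, 30.7 kb in the second and 67.4 kb in the third. The typical gap showed no order with size: the median of the groups' own median gaps was 450 bp, 420 bp, 450 bp and 495 bp in the 4 classes. Together the groups spanned 3.52 Mb, and their intervals covered 505 kb of it. All but 36 of the 3339 intervals were 150 bp wide, so the 505 kb mostly follows from their number. It does not measure how far the mark extends, and gaps here and below are distances between listed intervals.

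**Figure D1:**
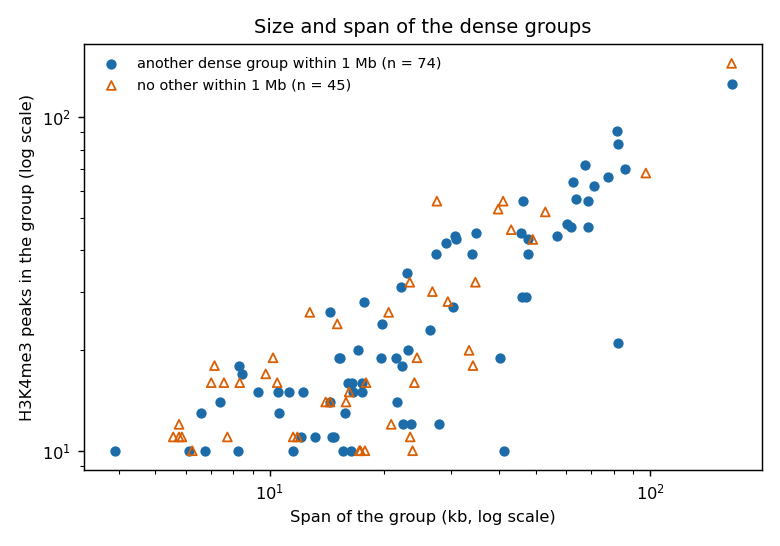
Number of H3K4me3 peaks in each dense group (vertical, log scale) against the span of the group in kb (horizontal, log scale); each point is 1 of 119 groups, filled where another dense group lies within 1 Mb (74 groups) and open triangles where none does (45 groups). Peaks and span rise together from 10 peaks over 3.91 kb to 145 peaks over 163 kb, and a group of 21 peaks over 82.1 kb lies well below the others of its span.

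The 10 groups with the most peaks held 847 peaks, 25.4% of all members. The group with the most was on chromosome 13 (87522942 to 87686391), where 145 peaks had a median gap of 440 bp and no gap above 6190 bp. Next came a group of 126 peaks on chromosome 6 (46400002 to 46563351), with a median gap of 550 bp and a largest gap of 8350 bp. These 2 had nearly the same span, 163 kb, and lay in different settings. The group on chromosome 13 was 5.96 Mb from the nearest other dense group, while the one on chromosome 6 had another, of 48 peaks, 559 kb away.

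The third was on chromosome 11 (35934602 to 36016511) with 91 peaks, followed by 2 on chromosome 14 with 83 peaks (67056662 to 67138991) and 72 peaks (66743762 to 66811191). A group of 70 peaks lay on chromosome 9 (559302 to 644971), and another of 66 on chromosome 11 (35401022 to 35478451). All 5 of these belonged to the fullest neighbourhoods described below. The remaining 3 were a group of 68 peaks on chromosome 12 (965922 to 1063191), one of 64 on chromosome 8 (202 to 62631) and one of 62 on chromosome 7 (61723742 to 61794831). The chromosome 12 group was the only dense group on its chromosome, and the chromosome 8 group began at position 202 of its chromosome. Median gaps in these 10 groups ran from 340 to 630 bp.

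Packing differed widely among the groups, between 0.243 and 2.56 peaks per kb, with a median of 0.973 (quartiles 0.812 and 1.42). The highest density, 2.56 peaks per kb, belonged to 10 peaks on chromosome 8 (7924662 to 7928571), where the largest gap was 490 bp. A second group on chromosome 8 (88098002 to 88105151) had 2.52 peaks per kb, with 18 peaks and a largest gap of 550 bp, and one on chromosome 1 (140038222 to 140045231) had 2.28, with 16 peaks and a largest gap of 590 bp. In these 3 groups the peaks ran on with no break above 1 kb. Both of the lowest densities were on chromosome 11, where 10 peaks from 36027442 to 36068631 gave 0.243 peaks per kb and 21 peaks from 35214942 to 35297031 gave 0.256. Their median gaps were 3030 and 4080 bp, the longest of all dense groups, and they form the 2 outer ends of 1 neighbourhood. The next lowest was a group of 10 peaks on chromosome 7 (7154602 to 7178311) with 0.422 peaks per kb and a median gap of 1690 bp.

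Inside the groups short gaps were the rule and a few long ones took up much of the space. The 3220 gaps between neighbouring member peaks had a median of 430 bp (quartiles 230 and 950 bp) and ran from 10 bp, where intervals nearly touch, to 9950 bp, just under the linking limit. A gap was at most 500 bp in 55.6% of cases (exact interval 53.9% to 57.3%) and at most 1 kb in 76.2% (74.7% to 77.7%). Only 384 gaps, 11.9%, were above 2 kb, yet they held 51.7% of the total gap length. The 103 gaps above 5 kb (3.20%) held 23.4% of it. A gap above 5 kb was absent from 64 of the 119 groups, a gap above 2 kb from 25 and a gap above 1 kb from 9. The largest gap of a group took a median of 18.3% of its span (3.79% to 49.7%).

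The shortest gaps, of at most 100 bp, took a smaller share in dense groups than in smaller groups on the same chromosomes. In dense groups 6.06% of the gaps were at most 100 bp and 15.2% were between 100 and 200 bp, after which the share fell slowly, to 13.9%, 11.5% and 8.94% in the next 3 classes of 100 bp. In pairs the shortest class was the fullest, with 21.7% of 641 gaps at most 100 bp, and the share between 300 and 400 bp was 3.59%. Groups of 3 to 9 peaks, with 834 gaps, were also fullest between 100 and 200 bp, at 15.2%, the same share as in dense groups, while 13.4% of their gaps were at most 100 bp and 6.47% were between 300 and 400 bp. The commonest single gap was 170 bp in dense groups, at 116 of 3220 gaps. It was 90 bp in groups of 3 to 9 (41 of 834) and in pairs (45 of 641). Each is a small share, and gap lengths come mostly in steps of 20 bp, the grid of the starts. Median gaps were 430 bp in dense groups, 530 bp in groups of 3 to 9 and 310 bp in pairs. Gaps up to 1 kb made up 66.2% of those in groups of 3 to 9 and 77.4% of those in pairs. The size classes come from the same distances as the gaps, so these values stand side by side without a test.

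**Figure D2:**
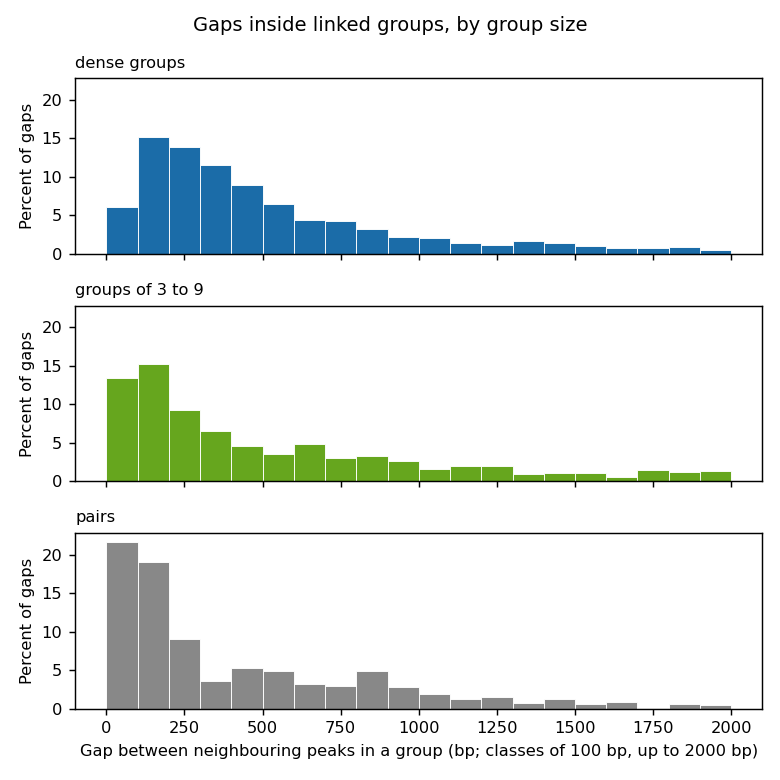
Share of gaps (vertical, percent of all gaps of the class) by gap length (horizontal, bp, in classes of 100 bp up to 2000 bp) in dense groups, groups of 3 to 9 peaks and pairs. Bars for dense groups and for groups of 3 to 9 both peak between 100 and 200 bp, at 15.2%, whereas the bars for pairs are highest at or below 100 bp, at 21.7%.

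Pooled over all groups, the share of short next gaps fell as the gap before lengthened. After a gap of at most 500 bp, the next gap was again at most 500 bp in 61.7% of 1726 cases and above 2 kb in 7.65%. After a gap of more than 500 bp and up to 2 kb those shares were 52.1% and 13.7% of 1015 cases. After a gap above 2 kb they were 36.1% and 26.9% of 360 cases. Groups differ in their typical gap and all gaps of a group enter these shares, so they describe differences between groups as well as order within a group. Pooled over the 119 groups, with the 2 end peaks of each left aside and the spans divided into 10 equal parts, each part held between 282 and 341 of 3101 peaks, which does not describe the spread within any 1 group.

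Joining peaks across gaps of at most 1 kb broke the 119 groups into 885 runs. A group held 1 to 42 runs, with a median of 5, and its fullest run held a median of 9 peaks. Runs covered a median of 43.3% of a group's span (quartiles 32.5% and 63.1%). Single peaks made up 349 of the runs. At the other end, 231 runs were at least 2 kb long, held 63.8% of the member peaks and occurred in 103 groups. Of these, 92 were at least 4 kb long and lay in 62 groups, and 15 reached 10 kb and lay in 14 groups.

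The longest run, 21.8 kb with 45 peaks, was inside the group at the start of chromosome 8 (3462 to 25231). The second, of 17.5 kb with 36 peaks, formed most of a group of 39 peaks on chromosome 11 (35547462 to 35564951). The third, of 16.2 kb with 33 peaks, opened the group of 145 peaks on chromosome 13 (87522942 to 87539111). Some of the largest groups held only short runs. In the group of 126 peaks on chromosome 6 the fullest run held 10 peaks, in the group of 72 on chromosome 14 it held 6, and in the group of 66 on chromosome 11 it also held 6. In 9 groups, of 10 to 19 peaks, a single run made up the whole group.

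Dense groups shared only short stretches of layout, and many pairs differ in number of peaks and so could not match in full. Distances from one peak start to the next were compared, in order and in reverse order, between all 7021 pairs of groups. With exact matching the longest stretch shared by 2 groups was 4 distances in a row, which occurred in 1 pair (chromosome 6 at 108791902 and chromosome 7 at 61723742). With a tolerance of 20 bp, the step of the grid on which the starts fall, the longest was 5, in 1 pair (chromosome 5 at 833982 and chromosome 9 at 363242), and 78 pairs (1.11%) shared 4 or more. How many such matches the grid and the short gaps alone would give was not tested.

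Dense groups often lay close to one another. Of the 119, 74 had another dense group within 1 Mb, which is 62.2% (exact interval 52.8% to 70.9%), 60 had one within 100 kb (50.4%, 41.1% to 59.7%) and 51 had one within 50 kb (42.9%, 33.8% to 52.3%). The remaining 45 had none within 1 Mb. Chaining groups across gaps of at most 1 Mb gave 20 neighbourhoods of 2 or more groups, on 12 chromosomes. They held 2207 peaks, 66.1% of the members. Of the 20, 10 held 2 groups each, 2 held 3, 2 held 4, 1 held 5, 1 held 6, 3 held 7 and 1 held 8. The 5 fullest held 35 dense groups and 1087 peaks, 29.4% of the groups and 32.6% of the member peaks. Without those 5, 46.4% of the other dense groups had another within 1 Mb.

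Gaps between consecutive dense groups were mostly either below 100 kb or above 1 Mb. Among 103 consecutive pairs of groups on a chromosome, 54 were within 1 Mb, with a median gap of 37.3 kb (quartiles 20.3 and 99.4 kb, range 10.2 to 559 kb). Of these 54 gaps, 40 were at most 100 kb and 32 at most 50 kb. In contrast 2 lay between 500 kb and 1 Mb and 8 between 1 and 2 Mb. The 49 gaps above 1 Mb had a median of 11.5 Mb (quartiles 3.64 and 32.0 Mb). No gap lay between 559 kb and 1.00 Mb. The limit of 1 Mb falls at the upper edge of this empty stretch, and 1 gap of 1.002 Mb, on chromosome 3, lies just outside it.

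**Figure D3:**
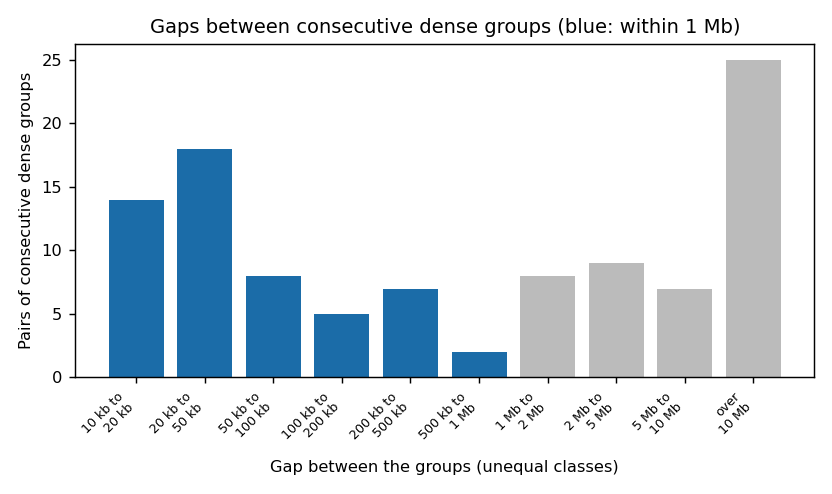
Number of pairs of consecutive dense groups (vertical) by the gap between them (horizontal, unequal classes from 10 kb to over 10 Mb); blue bars are gaps within 1 Mb. The bars are tall from 10 to 50 kb, with 14 and 18 pairs, lowest between 500 kb and 1 Mb with 2 pairs, and tallest above 10 Mb with 25 pairs.

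The 3 smallest gaps between dense groups were only just above the linking limit. They were 10.2 kb on chromosome 14 (between groups of 72 and 44 peaks, from 66811191 to 66821422), 10.9 kb on chromosome 11 (91 and 10 peaks, from 36016511 to 36027442) and 11.5 kb on chromosome 13 (24 and 20 peaks, from 136533991 to 136545502). In all, 14 of the 103 gaps were at most 20 kb. How such neighbours are counted depends on the limit: linking at 20 kb left 105 dense groups, and linking at 50 kb left 95, of which 36.8% had another within 1 Mb.

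Most gaps between neighbouring dense groups held no peak, in part by construction. A peak there must lie more than 10 kb from both groups, so the 14 gaps of at most 20 kb could hold none. Those short gaps are included in the counts that follow. In 39 of the 54 gaps within 1 Mb no peak of any kind lay between the groups (72.2%, exact interval 58.4% to 83.5%). That held for 33 of the 40 gaps of at most 100 kb and for 6 of the 14 longer ones. The other gaps held 79 peaks in 26 linked groups, namely 12 isolated peaks, 1 pair and 13 groups of 3 to 9. Dense groups themselves covered 2.41 of the 7.66 Mb spanned by the 20 neighbourhoods. The share was 10.7% to 77.0% for single neighbourhoods, with a median of 44.4%, and their spans ran from 53.8 kb to 1.60 Mb. Between consecutive neighbours the larger held a median of 1.77 times the peaks of the smaller and at most 9.10 times, and in 23 of the 54 it held at least 2 times as many.

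The fullest neighbourhood by number of groups lay on chromosome 14, from 66692962 to 67176351. Its 8 dense groups held, in order along the chromosome, 11, 72, 44, 13, 10, 20, 83 and 12 peaks, a total of 265 within 483 kb. Both large groups of 72 and 83 peaks stood inside the neighbourhood, with small ones at its ends. The gaps between the groups were 10.2 to 56.3 kb, with a median of 30.3 kb, and dense groups covered 58.8% of the span. Density ran from 0.510 peaks per kb in the last group (67152802 to 67176351) to 1.23 in the fourth (66892302 to 66902891). Between them lay 14 other peaks, in 2 groups of 3 to 9.

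On chromosome 11 a neighbourhood of 7 groups from 35214942 to 36068631 held 262 peaks, and its groups had 21, 12, 66, 39, 23, 91 and 10 peaks. Its first and last groups were the sparsest of all 119, with median gaps of 4080 and 3030 bp, against 310 to 1170 bp in the 5 groups between them. The widest gap between its groups was 293 kb. On chromosome 9, close to the start of the sequence, 7 groups from 363242 to 868391 held 42, 56, 70, 19, 10, 18 and 39 peaks, 254 in all, with a median gap between groups of 18.5 kb and 3 other peaks among them. These 2 neighbourhoods had almost the same number of groups and peaks over spans of 854 and 505 kb.

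The most drawn-out neighbourhood was that on chromosome 13, from 136421502 to 138019951, where 7 groups of 47, 24, 20, 29, 14, 45 and 15 peaks were spread over 1.60 Mb. Dense groups covered 13.9% of it, and its last group contained the last listed peak of the chromosome. On chromosome 10, 6 groups from 58798262 to 59105091 held 11, 19, 28, 29, 15 and 10 peaks, 112 in 307 kb, with 1 other peak among them. Here the outermost groups were also the smallest. That was not a common feature of the 5 neighbourhoods, since on chromosomes 9 and 13 the first groups held 42 and 47 peaks.

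**Figure D4:**
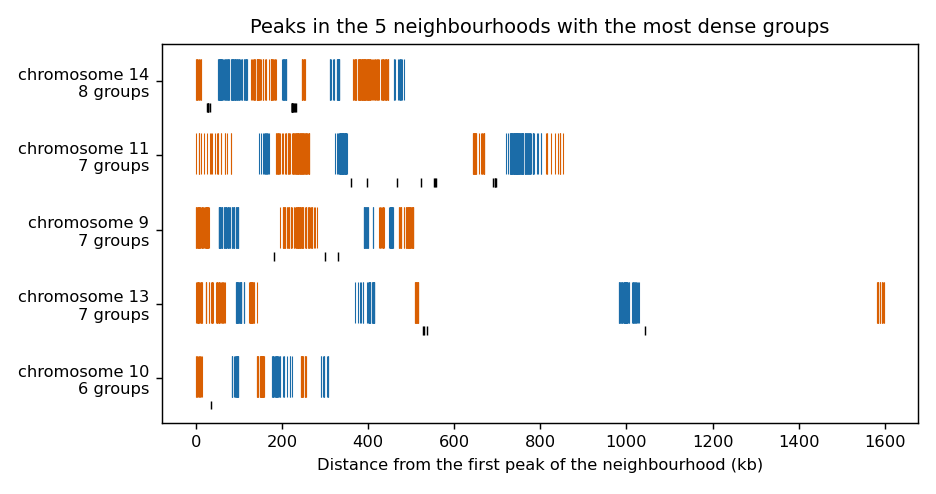
Peaks of the 5 neighbourhoods with the most dense groups, by distance in kb from the first peak of each (horizontal); tall ticks are member peaks, with consecutive dense groups in alternating colours, and short black ticks are peaks in smaller groups or alone. The 8 groups on chromosome 14 fill 483 kb with 14 other peaks among them, whereas the 7 groups on chromosome 13 are spread over 1.60 Mb.

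Groups with and without a dense neighbour had overlapping values of size, density and gap. The 74 with another within 1 Mb held a median of 19 peaks (quartiles 14 and 43) over 22.2 kb, and the 45 without held a median of 16 (11 and 28) over 17.3 kb. Median density was 0.943 and 0.999 peaks per kb, and the median of the groups' median gaps was 450 and 440 bp. The largest gap in a group had a median of 4840 bp in the first set and 3590 bp in the second. No test was made of these differences because groups of 1 library are not replicates. Groups farthest from any other on their chromosome were one of 30 peaks at the end of chromosome 18 (73539962 to 73566691), 71.1 Mb away from its nearest, and 2 on chromosome 7 that are each other's nearest at 45.7 Mb (123907442 to 123913011 with 11 peaks, and 169574782 to 169592671 with 16).

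The share that lay near a dense group fell from groups of 3 to 9 peaks to pairs and isolated peaks, given here as a description without a test. Size class and distance both come from the same peak positions and the same linking limit of 10 kb, so they are not independent. No other linked group can lie within 10 kb of a dense group. Single group sizes around the threshold, given below, did not follow such an order. Of 261 groups of 3 to 9 peaks, 66 lay within 1 Mb of a dense group, 25.3% (exact interval 20.1% to 31.0%). For pairs the share was 10.1% of 641 (7.91% to 12.7%) and for isolated peaks 7.43% of 2973 (6.52% to 8.44%). Within 100 kb the shares were 14.9%, 2.18% and 1.41%. As a reference, 5.21% of the sequence of the 17 chromosomes, up to the last peak of each, lay in a dense group or within 1 Mb of one, and 12.9% of the 5350 other peaks did. The median distance to the nearest dense group was 0.0956 Mb, 7.73 Mb, 15.3 Mb and 16.4 Mb in the 4 size classes, from dense groups to isolated peaks. A chromosome without a dense group gives no distance, and neither does the single dense group of chromosome 12.

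**Figure D5:**
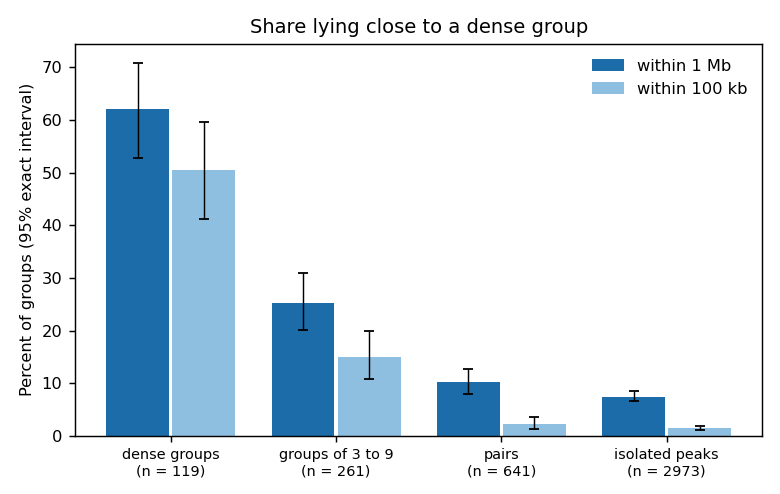
Share of linked groups (vertical, percent, error bars the 95% exact binomial interval) that lie within 1 Mb (dark) or 100 kb (light) of another dense group, by size class (horizontal, number of groups in brackets). The dark bars stand at 62.2%, 25.3%, 10.1% and 7.43% from dense groups to isolated peaks.

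The threshold of 10 peaks did not fall at a break. There were 11 groups of 8 peaks, 13 of 9, 13 of 10 and 11 of 11. The 13 groups of 9, just outside, spanned 3.45 to 25.7 kb with a median gap of 650 bp, and the 13 groups of 10, just inside, spanned 3.91 to 41.2 kb with a median gap of 490 bp. Of the groups of 9, 11 lay within 1 Mb of a dense group, as did 8 of the groups of 10, 4 of the 11 groups of 11 and 3 of the 11 groups of 8.

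Dense groups were unevenly shared among chromosomes. Chromosomes 9 and 14 had the most, 13 each, followed by chromosome 13 with 12. On chromosome 13 dense groups held 63.1% of the listed peaks, and on chromosome 9 they held 55.6%. Chromosome 14 had all 13 of its groups in 2 neighbourhoods, of 8 and 5 groups, the second from 87991942 to 88714991, while the 11 groups of chromosome 7 made up 9 neighbourhoods, single groups included. Per length to the last peak, chromosome 10 had the highest number, 10.5 groups per 100 Mb. Chromosome 2 had none, although it carried 361 peaks, 44 pairs and 15 groups of 3 or more, the largest of 7 peaks. Chromosome 12 had 1 and chromosome 15 had 2, and neither had a neighbourhood of 2.

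Some dense groups lay at the ends of the listed sequence. In the first 1 Mb of a chromosome began 12 dense groups with 461 peaks, on 5 chromosomes (5, 8, 9, 12 and 18), and 7 of the 12 were those of chromosome 9. The group on chromosome 12, of 68 peaks, ran on past 1 Mb. Another 4 groups with 106 peaks lay in the last 1 Mb before a chromosome's last peak, on chromosomes 7, 13 and 18. These 16 are 13.4% of the dense groups (exact interval 7.88% to 20.9%), against 2.14% of the 3875 smaller groups and isolated peaks (1.71% to 2.65%). Chromosome ends were taken from the list itself, so a dense group that holds the last peak counts as terminal by construction, and 2 of the 4 did.

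Peak width, which the linking did not use as such, was above the common 150 bp in few members. Of the 3339 members, 36 were wider than that, 1.08% (exact interval 0.756% to 1.49%), against 87 of 5350 other peaks, 1.63% (1.30% to 2.002%). The 36 were spread over 27 groups, with at most 3 in a group. Of the 36, 26 were in groups with another dense group within 1 Mb, where 66.1% of all members lay. Both members of 310 bp, the widest, lay in neighbouring dense groups of the second neighbourhood of chromosome 14 (88064242 to 88064551 and 88119702 to 88120011). They were followed by 5 of 290 bp, 3 of them also on chromosome 14 (at 66774782, 67003662 and 88114702), 1 on chromosome 5 (44440722) and 1 on chromosome 10 (59093862).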

How the data were processed

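H3K4me3 ChIP-seq was done on 1 library and total H3 on another; the authors deposited, for H3K4me3, a list with 3 columns (sequence, start, end) and no score. Per the submitters' processing notes Bowtie 0.12.7 was used. The file name gives rheMac2 and a false discovery rate of 0.01. The sources used here do not name the peak caller, its settings or any use of total H3 in calling. Baboon reads were thus placed on a macaque assembly, and copy number and mappability were not analysed here.

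Starts were read as counted from 0 and are printed counted from 1. Peaks on chromosomes 1 to 15, 17 and 18 were sorted by start and linked where the next start minus the highest previous end was at most 10000 bp. A gap is that same difference. Consecutive dense groups were chained into neighbourhoods across gaps of at most 1 Mb, and runs join peaks across at most 1 kb. Shares have 95% exact (Clopper-Pearson) intervals. No test was run. The linking was tested on simulated data. Python 3.11.15, pandas 2.3.3, numpy 2.4.6 and SciPy 1.17.1 were used.

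The members, the measures and the rule for naming regions were chosen with earlier results of these data known. Named are the 10 dense groups with the most peaks, the 5 neighbourhoods with the most groups, the 3 highest and 3 lowest densities, the 3 most distant groups, the 3 longest runs, the 3 smallest gaps between groups, the 5 widest members with ties, and the chromosomes with the most and fewest groups. Others were named after their values were seen: chromosomes 7, 10, 13 and 15 in the account of chromosomes, the 2 pairs of groups with shared distances, the gap on chromosome 3, the second neighbourhood of chromosome 14, and chromosomes at sequence ends.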

Additional observations from a re-analysis of the deposited data

How the results depend on the processing

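Across the alternatives, dense groups stayed within 1.5 times their number of 119 (81 to 143) except with peaks merged at 1 kb, which left 27, all of them overlapping the original ones. Linking at 2 kb kept 66.3% of the member peaks and at 5 kb 90.6%. The share of peaks in dense groups was 25.5%, 34.8%, 40.3% and 43.0% with linking at 2, 5, 20 and 50 kb, 9.10% of merged intervals at 1 kb, 40.8% and 33.4% with at least 8 and 15 peaks, and 36.9% on every placed chromosome. The share of dense groups with another within 1 Mb was 77.2%, 73.3%, 52.4% and 36.8% with linking at 2, 5, 20 and 50 kb, 48.1% with peaks merged at 1 kb, 71.4% when the distance was 2 Mb, and 46.4% without the 5 fullest neighbourhoods, an alternative chosen after the data were seen. Neighbourhoods of 2 or more numbered 20, with 12 at 50 kb, 5 with merged peaks, and 15 to 25 otherwise. The median gap was 350 bp at 2 kb, 470 bp at 50 kb and 1990 bp with merged peaks, and gaps of at most 1 kb made up 88.9%, 80.0%, 74.4% and 71.4% with linking at 2, 5, 20 and 50 kb and 0% after merging, which removes them by construction. A longer linking gap joins neighbours and admits longer gaps by construction. No paired analysis was possible because there is 1 library for each antibody. No stricter threshold could be set, since the list has no score, and with read depth unknown a stretch without peaks cannot be read as free of the mark.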
